A study of Glycine max with 21 samples.

Results

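The 150 genes described here had lower transcript levels in soybean roots after 6 and 12 hr of dehydration than in every other group of the experiment, while their levels after 6 and 12 hr of salt stress stayed close to the control. They were chosen from 62537 gene models by a score on the DESeq normalized counts: the level of a gene in a group was log2(mean of its 3 libraries + 10), and the score was the lowest level among the control, 1 hr of dehydration and the salt groups minus the higher of the levels at 6 and 12 hr of dehydration. Of the 62537 gene models, 4442 had a score above 0, and 3231 of these also had levels at 6 and 12 hr of salt within 1 log2 unit of the control. The 150 with the highest scores were taken, so the low levels at 6 and 12 hr of dehydration and the small salt differences were used to choose the genes and are given below as a description, with no test. Scores ran up to 2.08 and were at least 1 in 72 genes.

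The plants were seedlings of the soybean cultivar Williams 82 at the V1 stage, when the first trifoliolate leaf is out, and the RNA came from the roots. The groups were dehydration for 1, 6 and 12 hr, imposed by exposing seedlings to air with water limited, salt stress for 1, 6 and 12 hr in 100 mM NaCl, and control roots at 0 hr, with 3 libraries in each of the 7 groups (21 libraries). Controls were harvested at 0 hr only, so an effect of 6 or 12 hr of dehydration cannot be told apart from that of the time of day or of the hours since the seedlings were moved, although the salt groups were harvested at the same hours. The labels number the libraries of a group as replicates, and the study calls them biological replicates; the number of seedlings in each library was not found in the labels, and the p-values measure the spread between these libraries. In RNA from a tissue of many cell types, fewer cells of a type and less RNA per cell cannot be told apart.

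When water is withdrawn, root cells lose turgor, abscisic acid accumulates, and transcription changes within hours, with genes of growth and of signalling among those known to be turned down. High NaCl also lowers the water potential around the root, and it adds sodium and chloride ions. In this study the seedlings grew on moist germination paper and were moved into the NaCl solution. The study describes no such move for the control, and its effect was not tested. The annotation used for these gene models was the transcription factor class given by the study for the genes it called differentially expressed (DE), and 28 of the 150 genes had one. The other 122 genes are named by their gene model alone, and the root identity of the tissue was not checked against marker genes because no list of markers could be matched.

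Library totals ran from 3752853 to 9091870 counts in the 6 late dehydration libraries (6 and 12 hr) and from 4202958 to 28177205 counts in the other 15. Certain libraries stood apart over the 150 genes. Among the controls, replicate 1 was the lowest of its group in 98 of the 150 genes, against 36.0% of all tested genes. Control replicate 2 was the highest in 85 (26.6% of tested genes), which raises the control mean of these genes. For 1 hr of dehydration, replicate 1 was the lowest in 120 (29.8% of tested genes) and replicate 3 the highest in 125 (40.1%). At 12 hr of salt, replicate 3 was the lowest in 97 (34.0%), at 6 hr of dehydration replicate 2 was the lowest in 94 (33.1%), and at 12 hr of dehydration replicate 3 was the highest in 92 (40.7%). The 150 genes thus moved together between replicates of 1 group as well as between groups, and what set these replicates apart was not tested.

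Over the 150 genes the median difference from the control on the scale of log2(normalized count + 10) was -1.55 at 6 hr of dehydration and -1.52 at 12 hr, a median ratio of 0.341 and 0.348 in (level + 10), whereas the medians over all expressed genes were 0.0039 and 0.0096. At 1 hr of dehydration the median was -0.12, and at 1, 6 and 12 hr of salt it was -0.17, 0.26 and 0.16. By library, the medians were -1.61, -1.78 and -1.31 at 6 hr of dehydration and -1.71, -1.94 and -1.36 at 12 hr, against -0.53, 0.31 and -0.02 in the control libraries. The 6 late dehydration medians did not overlap any of the other 15, whose lowest was -0.78, in replicate 1 of 1 hr of dehydration. In each of the 6 late dehydration libraries, all 150 genes were below the control mean. The share of all counts that fell on the 150 genes was 0.184% to 0.286% in the late dehydration libraries and 0.489% to 1.23% in the other libraries. Without control replicate 1 the median at 6 hr was -1.70 and without control replicate 2 it was -1.34.

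**Figure D1:**
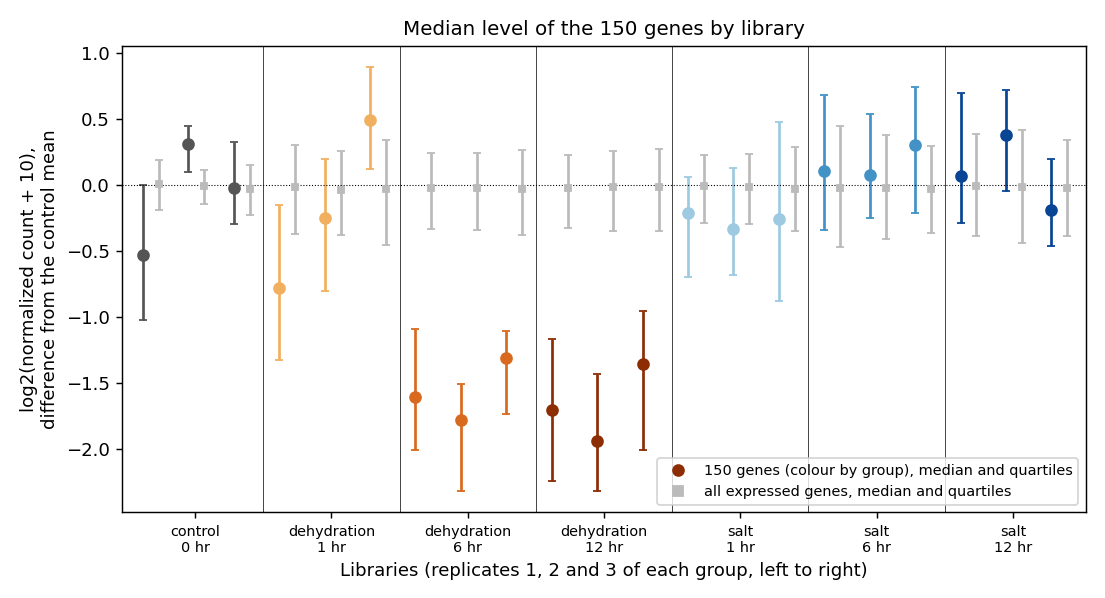
Each point is the median over genes in 1 library of the difference in log2(normalized count + 10) from the control mean, and bars span the quartiles; circles are the 150 genes and grey squares all expressed genes (a mean of at least 10 in a group). The 6 libraries of 6 and 12 hr of dehydration lie between -1.94 and -1.31, below all other libraries, and the grey squares stay near 0 throughout.

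Single libraries overlapped more than the group means. For 55 of the 150 genes all 6 late dehydration libraries were below all other 15 libraries, against 0.523% of the 36691 tested genes, and for 100 genes they were below the 3 control libraries, against 5.35%. The lower of the late dehydration levels was at 12 hr in 91 genes and at 6 hr in 59. The highest of the 7 groups was salt at 6 hr in 55 genes, salt at 12 hr in 37, dehydration at 1 hr in 34, the control in 15 and salt at 1 hr in 9. The lowest of the other 5 groups, which limits the score, was salt at 1 hr in 61 genes, the control in 30, dehydration at 1 hr in 29, salt at 12 hr in 17 and salt at 6 hr in 13.

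**Figure D2:**
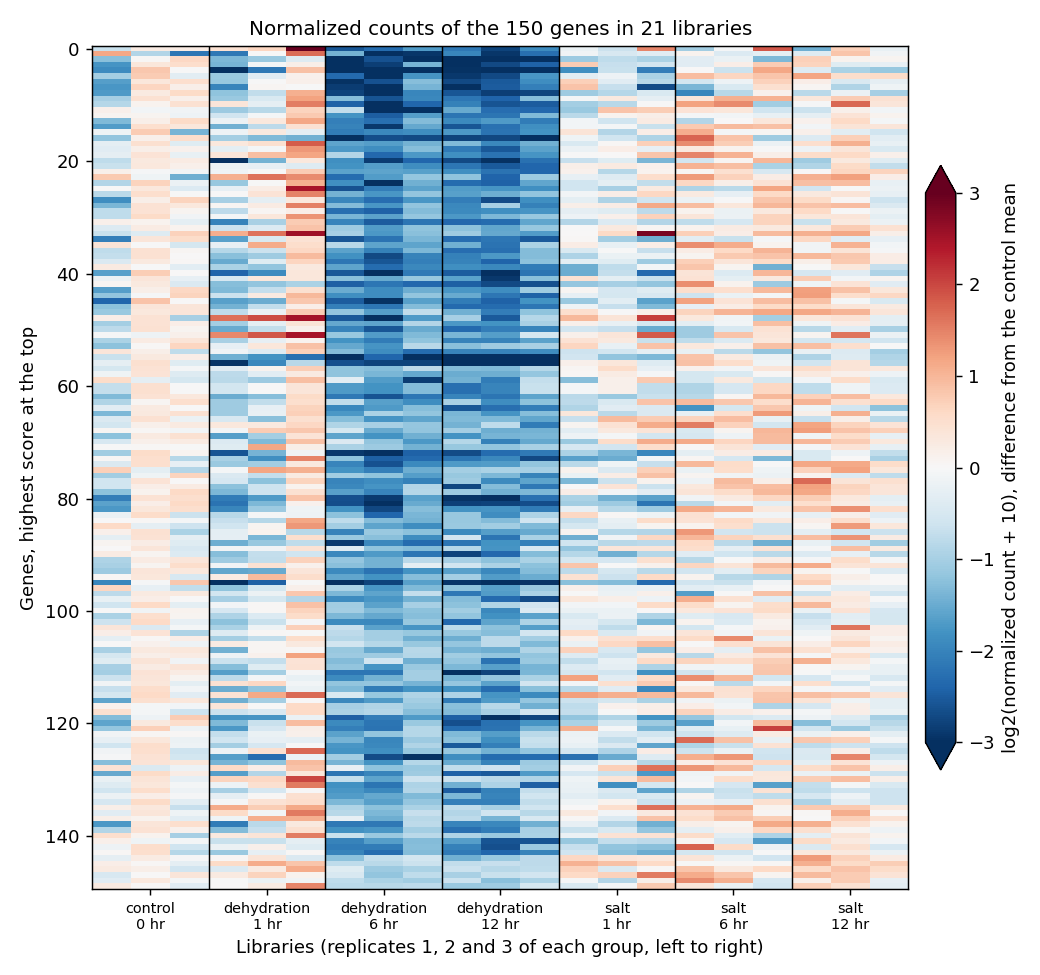
Rows are the 150 genes from the highest score at the top, columns the 21 libraries, and colour the difference in log2(normalized count + 10) from the control mean of the gene, with colours limited to -3 and 3. The 6 columns of 6 and 12 hr of dehydration are blue in all rows, while replicate 1 and replicate 3 of 1 hr of dehydration differ in colour over most rows.

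In the quasi-likelihood test of edgeR over all 21 libraries, with calls made at a 2-fold change or more and an adjusted p under 0.05, 59 of the 150 genes were called down at 6 hr of dehydration against the control (1.59% of tested genes) and 58 at 12 hr (1.62%). Both contrasts were used to choose the genes, so nothing is read from these counts. All 150 fold changes were negative, with a median of -1.77 at 6 hr and -1.90 at 12 hr (log2). At both times 44 genes were called (1.02% of tested genes), at 6 or 12 hr 73 (2.19%), and at neither 77. The count of 59 at 6 hr was 18 without control replicate 2 and 21, 12 and 30 without replicate 1, 2 or 3 of 6 hr of dehydration, and the count of 58 at 12 hr was 20 without control replicate 2 and 17, 19 and 38 without replicate 1, 2 or 3 of 12 hr. The genes made up 10.1% of all genes called down at 6 hr and 9.76% of those at 12 hr.

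The rule turned round, for genes higher at 6 and 12 hr of dehydration than in every other group with the same salt limit, found 3381 genes with a score above 0, close in number to the 3231, but 35 of them reached the score of the last of the 150. That count is a description of the same libraries and was not tested.

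Glyma16g04380 had the highest score. It had 187, 224 and 349.7 normalized counts in replicates 1, 2 and 3 of 6 hr of dehydration and 253, 158 and 304 at 12 hr, against 723, 1365 and 1369.6 in the control libraries. All 6 late dehydration values were below all other libraries. At 1 hr of dehydration it had 1596, 1813 and 10968 normalized counts, so that 1 library carried most of that group mean, and the fold change against the control at 1 hr was 2.02 ± 0.81 (log2, SE of the fit). In the 9 salt libraries it ranged from 414 to 4194.

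Glyma01g35660 had 48.5, 84.7 and 63.7 normalized counts at 6 hr of dehydration and 45.3, 30.6 and 30.9 at 12 hr, against 235, 589.8 and 889 in the control libraries. The groups did not overlap, and the values at 12 hr were all below those at 6 hr. The fold change against the control was -3.11 ± 0.43 at 6 hr and -3.98 ± 0.46 at 12 hr (log2, SE). In salt its mean was 295 ± 36.8 at 1 hr, 388 ± 150.4 at 6 hr and 719.6 ± 193 at 12 hr (SD, n = 3 each).

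Glyma11g33450 had the most negative fold change at 6 hr, -3.82 ± 0.95 (log2, SE), with 20.01, 15.8 and 31.0 normalized counts at 6 hr of dehydration and 31.9, 8.99 and 18.2 at 12 hr, against 77.6, 558 and 310.2 in the control libraries. Its values at 1 hr of dehydration, 27.7, 63.0 and 588, were far apart, and the lowest of them lay within the late dehydration range. Glyma06g46680 spread as widely, with 73.1, 10.8 and 19.5 normalized counts at 6 hr of dehydration and 47.3, 19.8 and 36.4 at 12 hr, against 489, 112 and 39.4 in the control libraries. Control replicate 3 of that gene lay below replicate 1 of 6 and of 12 hr of dehydration, so these groups overlapped.

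Glyma08g05000 and Glyma13g01110 showed no overlap between the late dehydration libraries and the rest. In Glyma08g05000 the gap was very narrow, from 173.5 in replicate 3 of 6 hr of dehydration to 174.9 in replicate 1 of 6 hr of salt. Glyma08g05000 had 93.9, 50.6 and 174 normalized counts at 6 hr of dehydration and 110.1, 91.7 and 96.3 at 12 hr, against 209, 852 and 1054 in the control libraries. Glyma13g01110 had 19.2, 5.81 and 20.4 normalized counts at 6 hr of dehydration and 28.8, 16.2 and 18.2 at 12 hr, against 76.7, 159 and 208 in the control libraries. In both, control replicate 1 was the lowest control. Glyma08g11620 had 97.7, 4.98 and 6.20 normalized counts at 6 hr of dehydration, where replicate 1 stood apart, and 53.5, 27.0 and 25.4 at 12 hr, against 192, 160.5 and 159 in the control libraries. Glyma09g24190 was measured at low counts, 6.16, 2.49 and 34.5 at 6 hr of dehydration and 3.09, 10.8 and 18.2 at 12 hr, against 24.9, 174 and 122 in the control libraries, and its groups overlapped.

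**Figure D3:**
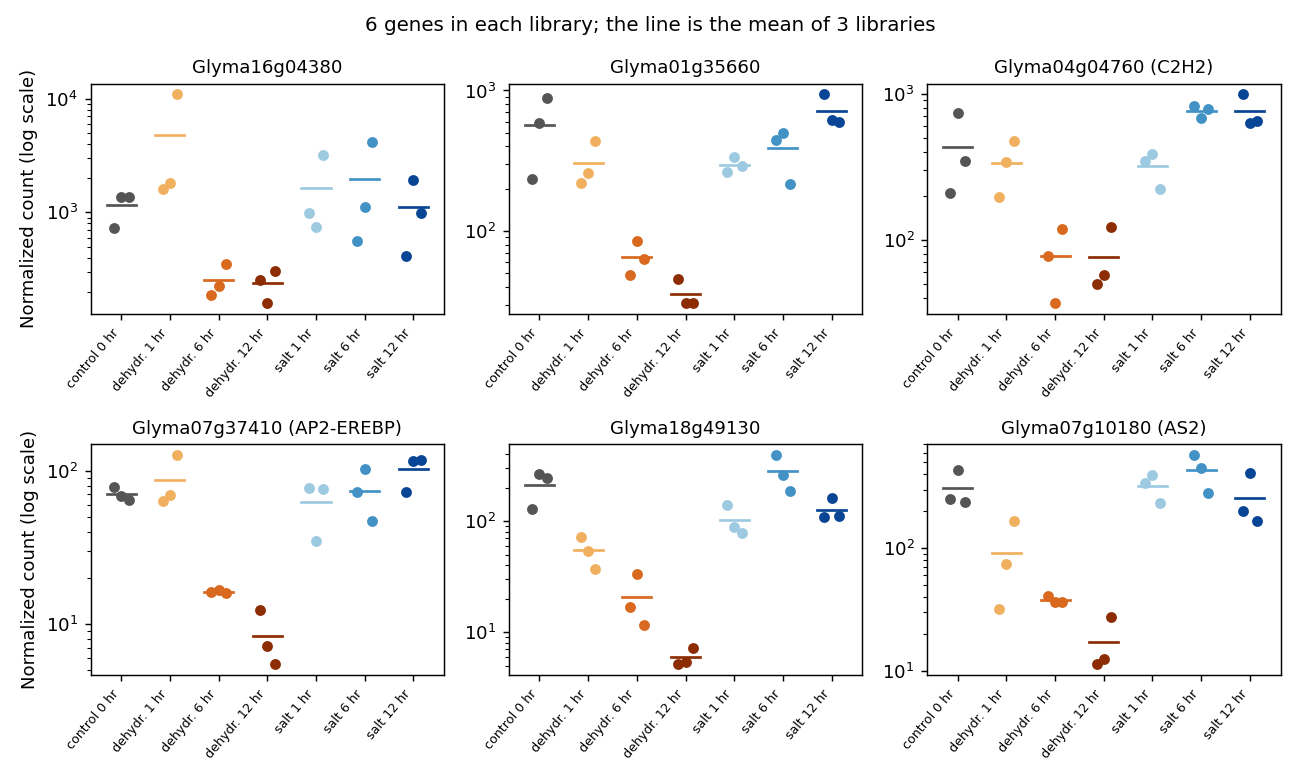
Points are normalized counts (log scale) of 6 genes in single libraries, 3 for each of the 7 groups, and lines are group means. In Glyma18g49130 and Glyma07g10180 the mean is already low at 1 hr of dehydration, whereas in Glyma07g37410 it is 86.4 there and 70.2 in the control.

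Transcription factors were the one functional group that could be counted. Among the 150 genes 28 (18.7%) had a transcription factor class, compared with 2.67% of tested genes and with 14.2% and 14.5% of the genes called down at 6 and 12 hr of dehydration. The list of classes holds 1054 genes that the study itself called DE on these samples, so it is not independent evidence of any direction, and genes low in these data were more likely to be on it. Below, the tested genes of a class are those on this list, not the whole family. Their call counts and medians were therefore shaped by that selection. The 28 genes fell into 10 classes: 10 in AP2-EREBP, 4 in C2H2, 3 in WRKY, 3 in GRAS, 2 each in Dof and MYB/HD-like, and 1 each in MYB, AS2, TPR and C3H.

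AP2-EREBP proteins carry the AP2 DNA-binding domain and include the ethylene response factors and the dehydration-responsive element binding proteins. Of the 10 genes of this class, 6 were called down after 6 hr of dehydration and 5 after 12 hr, while over the 128 tested genes of the class 9 were called down and 1 up at 6 hr, and 14 down and 2 up at 12 hr. Glyma02g11060, the one with the highest score, had 302, 102 and 163 normalized counts at 6 hr of dehydration and 150.3, 113 and 158 at 12 hr, against 464, 750.3 and 481 in the control libraries. It had 1029 ± 283 after 1 hr of dehydration and 1127 ± 469.9 after 6 hr of salt (SD, n = 3 each), both above its control mean of 565. Every late dehydration library of Glyma02g11060 was below every other library.

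In Glyma07g37410 the replicates of 6 hr of dehydration and of the control lay close together, and those of 12 hr were further apart: it had 16.2, 16.6 and 15.9 normalized counts at 6 hr of dehydration and 12.3, 7.19 and 5.45 at 12 hr, against 78.6, 68.0 and 64.0 in the control libraries. The fold change against the control was -2.09 ± 0.37 at 6 hr and -2.98 ± 0.42 at 12 hr (log2, SE), and the difference between 12 and 6 hr, -0.88 ± 0.45, had an unadjusted p of 0.0645 in edgeR. Glyma13g30990 was the most abundant of the class among the 150, with 718, 467 and 649 normalized counts at 6 hr of dehydration and 636, 507 and 679.8 at 12 hr, against 1137, 1790.0 and 1624 in the control libraries. Its late dehydration values were again below all other libraries, at a smaller fold. The remaining 7, Glyma06g44430, Glyma05g05130, Glyma01g44130, Glyma20g16910, Glyma05g03560, Glyma10g23440 and Glyma17g15460, had control means from 12.8 to 1232 normalized counts. Glyma05g03560 was near the limit of detection, with 0.77, 0.83 and 2.66 at 6 hr of dehydration and 1.03, 0 and 0 at 12 hr, against 5.75, 15.8 and 17.0 in the control libraries. Over the 10 genes the median difference from the control was 0.04, -1.56 and -1.50 after 1, 6 and 12 hr of dehydration, while after 1, 6 and 12 hr of salt it was -0.18, 0.06 and -0.17. Over the 128 tested genes of the class on the study's DE list the median fold change at 6 hr of salt was 1.27 (log2). The 10 are listed genes of the class that stayed near the control in salt, which the rule required.

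C2H2 zinc finger proteins include, in Arabidopsis, repressors and activators that act in responses to drought, cold and salt. Of the 4 genes of this class, 3 were called down after 6 hr of dehydration and 3 after 12 hr, and over its 57 tested genes 5 were called down and 1 up at 6 hr, and 4 down and 1 up at 12 hr. Glyma04g04760 had 77.7, 36.5 and 119 normalized counts at 6 hr of dehydration and 49.4, 57.5 and 122 at 12 hr, against 208, 742 and 346 in the control libraries. Its salt means were 318 ± 87.4, 762 ± 76.6 and 758 ± 202 at 1, 6 and 12 hr (SD, n = 3 each), and no late dehydration library reached any other library. Glyma17g35430 had 172, 63.9 and 106 normalized counts at 6 hr of dehydration and 89.5, 73.7 and 174 at 12 hr, against 215, 605 and 485 in the control libraries. Glyma14g09760 had 60.8, 54.8 and 86.8 normalized counts at 6 hr of dehydration and 44.3, 30.6 and 67.3 at 12 hr, against 174, 255 and 245 in the control libraries. In both genes the late dehydration libraries were below all others. Glyma10g40400, the fourth, averaged 50.9 normalized counts after 6 hr of dehydration and 85.3 after 12 hr, against 259 in the control. The median difference of the 4 genes from the control was -1.99 and -1.95 after 6 and 12 hr of dehydration, while after 6 and 12 hr of salt it was 0.68 and 0.67.

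WRKY factors bind W-box elements and are known for roles in defence and in abiotic stress. Glyma18g49140 had 57.7, 30.7 and 17.7 normalized counts at 6 hr of dehydration and 41.2, 12.6 and 21.8 at 12 hr, against 55.6, 91.7 and 98.8 in the control libraries, so replicate 1 of 6 hr overlapped the controls. Glyma16g03570 and Glyma18g47300 had means of 42.1 and 77.0 at 6 hr of dehydration, against 125 and 169.7 in the control. None of the 3 genes of this class was called down after 6 or 12 hr of dehydration, where over its 89 tested genes 1 was called down at 6 hr and 0 at 12 hr. In these 3 genes the median difference from the control was -1.05 and -1.39 after 6 and 12 hr of dehydration, while after 6 and 12 hr of salt it was 0.73 and 0.71. Over the 89 tested WRKY genes on the study's DE list the median fold change was -0.79 after 6 hr of dehydration, while after 6 hr of salt it was 2.13 (log2). These medians do not describe the WRKY family as a whole.

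GRAS proteins include, in Arabidopsis, SCARECROW and SHORT-ROOT, which pattern the root, and the DELLA repressors of gibberellin signalling. Of the 3 genes of this class, 1 was called down after 6 hr of dehydration and 1 after 12 hr, and over its 30 tested genes 2 were called down at 6 hr and 1 at 12 hr. Glyma07g39650 had 60.0, 45.6 and 70.8 normalized counts at 6 hr of dehydration and 54.5, 32.4 and 65.4 at 12 hr, against 65.2, 298 and 423 in the control libraries. Control replicate 1 lay within the range of the late dehydration values and the other controls far above it. Glyma12g34420 differed at 1 hr: it had 219, 323 and 621 normalized counts after 1 hr of dehydration and 97.7, 152 and 770.4 after 1 hr of salt, against 57.5, 72.7 and 163 in the control libraries, whereas 6 and 12 hr of dehydration gave 43.9, 22.4 and 35.4 and 41.2, 27.0 and 23.6. The fold change at 1 hr was 1.95 ± 0.62 in dehydration and 1.75 ± 0.61 in salt (log2, SE), and neither was called. Glyma12g06630 averaged 74.1 ± 19.4 normalized counts at 12 hr of dehydration, against 188 ± 83.8 in the control (SD, n = 3 each).

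Of the classes with fewer members, the MYB gene Glyma19g24640 had 8.47, 17.4 and 16.8 normalized counts at 6 hr of dehydration and 15.4, 16.2 and 3.64 at 12 hr, against 66.1, 184 and 242 in the control libraries, with no overlap with any other library. Dof proteins are plant factors with a single zinc finger. The Dof gene Glyma09g37170 had 16.2, 39.8 and 28.3 normalized counts at 6 hr of dehydration and 31.9, 44.9 and 36.4 at 12 hr, against 192, 212 and 137 in the control libraries, also without overlap. Over the 22 tested Dof genes 8 were called down and 1 up at 6 hr, and 9 down and 1 up at 12 hr, on the list the study chose from these samples.

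**Figure D4:**
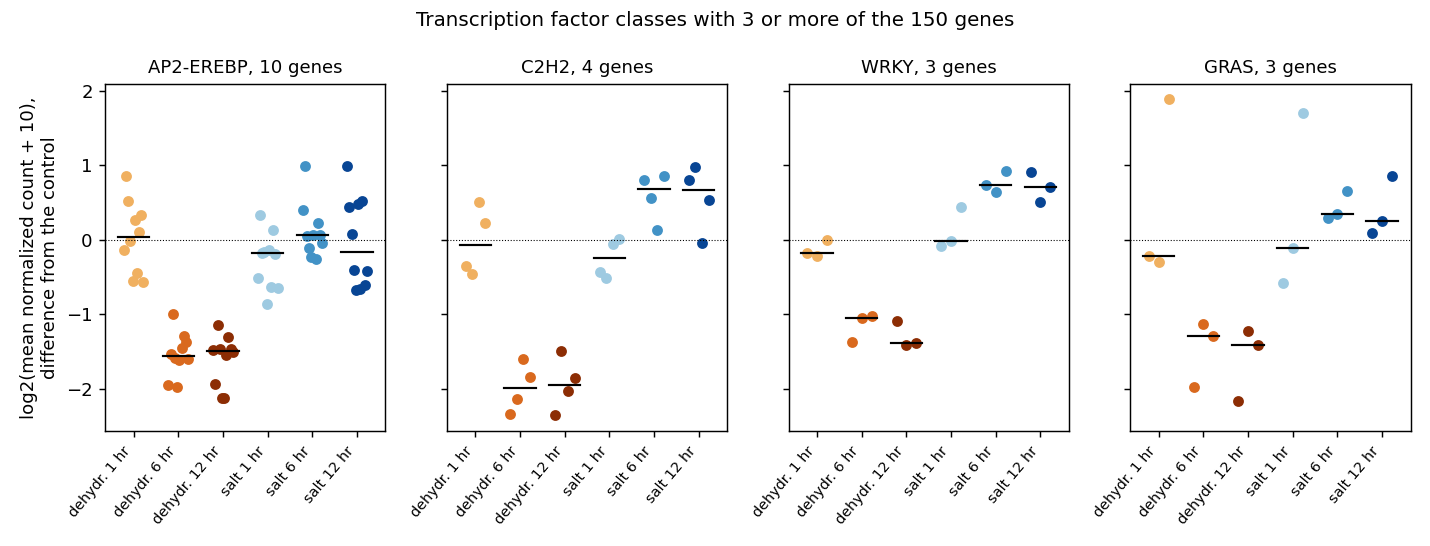
Points are single genes of the 4 transcription factor classes with at least 3 of the 150 genes, and lines their medians; the vertical axis is the difference from the control in log2(mean normalized count + 10). The medians at 6 and 12 hr of dehydration lie between -1.99 and -1.05, and at 6 hr of salt between 0.06 and 0.73.

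The rule asked that 6 and 12 hr of dehydration both be low but not which was lower, and it left the level at 1 hr free above them. Between 12 and 6 hr of dehydration 0 of the 150 genes were called in edgeR, against 0.03% of tested genes called down and 0.0136% called up. An unadjusted p under 0.05 was reached by 2 genes, and DESeq2 and limma also called 0. The median fold change of 12 over 6 hr was -0.10 (log2), with 94 genes lower and 56 higher at 12 hr. The 2 genes, named here after their values were seen, were Glyma18g49130 and the AS2 gene Glyma07g10180, with fold changes of -1.81 ± 0.55 and -1.21 ± 0.58 (log2, SE).

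At 1 hr of dehydration against the control 2 of the 150 genes were called down (1.43% of tested genes) and 2 up (1.15%), with a median fold change of -0.16 (log2). The score required the level at 1 hr to stay above those at 6 and 12 hr, and 1 hr of dehydration was the limiting group in 29 genes, so these calls rest in part on values that chose the genes and nothing is read from their share. Glyma18g49130, one of those called down, had 72.5, 54.0 and 36.8 normalized counts after 1 hr of dehydration, 16.9, 33.2 and 11.5 after 6 hr and 5.15, 5.39 and 7.27 after 12 hr, against 129, 264 and 246 in the control libraries. Its levels were lower at each later time, and the libraries of 12 hr lay below all those of 6 hr. Glyma07g10180, of the AS2 (LATERAL ORGAN BOUNDARIES domain) class, was the other, with 31.6, 73.5 and 168 normalized counts after 1 hr of dehydration, 40.8, 36.5 and 36.3 after 6 hr and 11.3, 12.6 and 27.3 after 12 hr, against 252, 436 and 238 in the control libraries. Called up at 1 hr were Glyma15g07850, with 2435, 2997 and 4376 normalized counts, against 881, 1048 and 383 in the control libraries, and Glyma04g17300, with 48.8, 75.04 and 59.7, against 35.5, 30.0 and 22.4. Both were low later in dehydration: Glyma15g07850 had 123, 83.0 and 229 and 381, 126 and 419.9 at 6 and 12 hr, and Glyma04g17300 13.1, 12.4 and 15.1 and 13.4, 14.4 and 12.7. The 4 calls were 1 without control replicate 1, control replicate 2, or replicate 2 or 3 of 1 hr of dehydration, 2 without control replicate 3, replicate 1 of 1 hr, replicate 1 of 12 hr of dehydration, salt 6 hr replicate 2 or salt 12 hr replicate 1, and 7 without salt 6 hr replicate 1.

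At 1 hr of salt 0 of the 150 genes were called down in edgeR (0.73% of tested genes; 12 genes had an unadjusted p under 0.05, DESeq2 called 1 and limma 0) and 1 was called up (0.867%). The level at 1 hr of salt was part of the score, and it was the limiting group in 61 of the genes, so genes low at that time were left out by the choice and nothing is read from the 0. The 1 gene was Glyma04g17300, with 71.5, 62.3 and 49.5 normalized counts at 1 hr of salt, against 35.5, 30.0 and 22.4 in the control libraries. This call was lost when any control or any library of 1 hr of salt was left out, and 2 genes were called without salt 6 hr replicate 1 or replicate 3. The median fold change was -0.19 at 1 hr of salt and 0.26 and 0.14 at 6 and 12 hr (log2), where the rule also asked for levels near the control.

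The pattern was also described in libraries that had no part in choosing genes. For this the rule was applied without replicate 1, 2 or 3 of every group. The 150 genes so chosen were then scored in the 7 libraries left out. The 7 libraries left out are 1 of each group. Without replicate 1, 68 of the 150 chosen genes had both late dehydration libraries below the other 5 left-out libraries, against 7.17% of tested genes. For replicate 2 the count was 129, against 10.1%, and for replicate 3 it was 68, against 6.98%. The share was above that of all genes in each of the 3 sets of libraries, but it was 45.3% for replicates 1 and 3, against 86.0% for replicate 2. The genes moved together between replicates, so they are not independent observations. A shift in 1 library can move the whole count, and these shares were not tested. Both late dehydration libraries were below the control library alone in 124, 146 and 108 of the chosen genes for replicates 1, 2 and 3, against 39.8%, 34.9% and 27.1% of tested genes. The median difference from the control library was -0.99, -1.84 and -0.96 at 6 hr and -1.24, -1.78 and -0.94 at 12 hr, smaller in replicates 1 and 3 than the -1.55 and -1.52 of all libraries. Of the genes so chosen 68, 100 and 84 were among the 150.

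**Figure D5:**
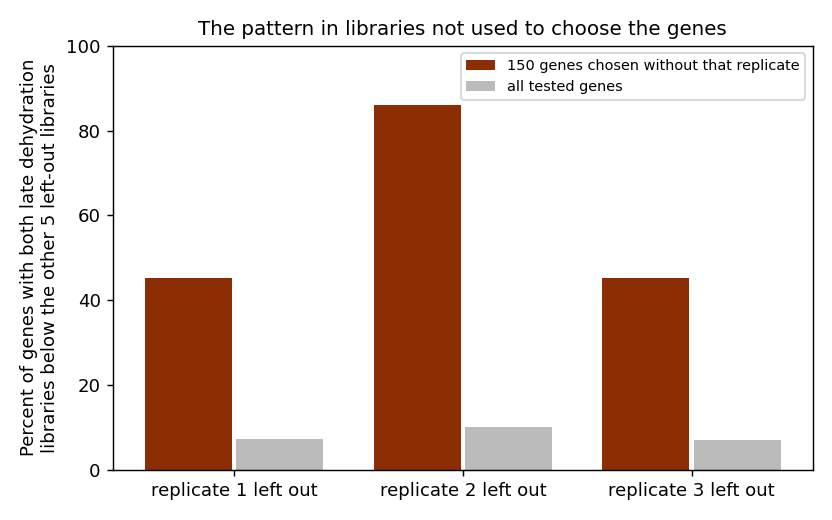
Bars give the percent of genes whose libraries of 6 and 12 hr of dehydration were both below the other 5 libraries of a replicate number that was not used to choose them, for the 150 genes chosen without that replicate (brown) and for all tested genes (grey). The brown bars stand at 45.3%, 86.0% and 45.3% and the grey ones at 7.17%, 10.1% and 6.98%.

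The libraries were run in 3 lanes, and lane 2 held salt libraries alone. All libraries of 1 and 6 hr of salt were in lane 2, so these groups shared no lane with the control. All libraries of 1 hr of dehydration were in lane 3 and all of 12 hr of dehydration in lane 4. Comparisons of 1 and 6 hr of salt with the control are therefore wholly mixed with lane, and those of 1 and 12 hr of dehydration partly. With lane as a term in the fit, only the libraries of 12 hr of salt link lane 2 to the other lanes. Within lane 3, with 2 late dehydration libraries and 5 others, the median difference of the 150 genes from the control of the lane was -1.72, and in 121 genes both late dehydration libraries were below all others of the lane, against 7.62% of tested genes. Within lane 4, with 4 late dehydration libraries and 3 others, the median was -1.50 and the count 115, against 7.67%. These are the libraries that chose the genes, so a gap within each lane was to be found by the choice and is given as a description; with lane as a term in the edgeR fit, the genes called down were 22 at 6 hr and 32 at 12 hr, against 59 and 58 without it.

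The 150 genes lay on all 20 chromosomes, between 3 on chromosome 19, with 1710 tested genes, and 15 on chromosome 13, which had the most tested genes, 2547. By the numbering of the gene models 12 pairs, made of 22 of the genes, lay within 10 models of each other, 9 of them side by side. Such pairs were not counted for other genes, so nothing is read from their number. Glyma13g01110, Glyma13g01120 and Glyma13g01130 are neighbours: Glyma13g01120 averaged 98.4 and 51.8 normalized counts at 6 and 12 hr of dehydration, against 437 in the control, and Glyma13g01130 68.8 and 42.6, against 415. Their means differed at 1 hr of dehydration, where Glyma13g01110 averaged 253, against 148 in the control, and Glyma13g01120 209, against 437. Neither was called at 1 hr. The libraries of Glyma13g01110 overlapped, with 192, 122 and 446 at 1 hr, against 76.7, 159 and 208 in the control, and its fold change was 0.74 ± 0.62 (log2, SE). Glyma16g29660, Glyma16g29670 and Glyma16g29710 form another run, and in the pair of highest score among them Glyma16g29660 had 59.3, 88.0 and 255 normalized counts at 6 hr of dehydration and 48.4, 97.1 and 120.0 at 12 hr, against 196, 872 and 997 in the control libraries. Glyma16g29710 followed it library by library, with 71.6, 94.6 and 251 after 6 hr of dehydration and 87.5, 101 and 165 after 12 hr, against 192, 791 and 901 in the control. The adjacent Glyma11g35040 and Glyma11g35050 averaged 57.7 and 64.4 at 6 hr of dehydration, against 165 and 191 in the control. Some pairs could not be told apart in the counts: the AP2-EREBP gene Glyma05g05130 and its neighbour Glyma05g05140 had equal raw counts in all 21 libraries, and those of the AP2-EREBP gene Glyma10g23440 and its neighbour Glyma10g23450 differed by at most 3.92%. Glyma05g05130 averaged 239 and 261 normalized counts at 6 and 12 hr of dehydration, against 738 in the control, and Glyma10g23440 443 and 413, against 1232. Each of these pairs therefore adds 1 measured profile, not 2, to the counts over the 150 genes, and over the series 26 of the 34614 genes with a mean of at least 10 raw counts had the same counts as another gene in every library. The WRKY gene Glyma18g49140 is next to Glyma18g49130. Reads that mapped to more than 1 place were not counted, so values of neighbours that are near-identical copies are uncertain, and whether these pairs are copies or overlap was not analysed here.

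The 150 genes were expressed above the typical gene in control roots: the median of their control means was 180.8 normalized counts, against 83.0 over tested genes, and their medians were 47.9 at 6 hr and 43.4 at 12 hr of dehydration. The pseudocount of 10 lowers the score of genes with few counts, so this level is in part set by the rule. The most abundant was Glyma17g01970, with 863, 1049.9 and 917 normalized counts at 6 hr of dehydration and 865, 723 and 756 at 12 hr, against 4997, 5794 and 3496 in the control libraries. At 12 hr of dehydration 3 genes had 0 counts in replicate 2 and 1 in replicate 3, and at 6 hr 1 gene had 0 counts in replicate 3, while no gene was at 0 in any of the other libraries.

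The limit of 150 fell among genes of nearly equal score, 0.73 on both sides. Just inside, Glyma01g37410 averaged 93.3 and 97.6 normalized counts at 6 and 12 hr of dehydration, against 168 in the control, Glyma08g21710 9.55 and 9.29, against 26.7, and Glyma01g42020 25.3 and 23.7, against 51.9. Just outside, Glyma10g05830 averaged 235 and 231, against 535 in the control, Glyma14g02770 26.1 and 26.6, against 50.6, and Glyma18g01000 293 and 333, against 655. Nothing in these values separates the genes on the 2 sides of the limit.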

How the data were processed

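RNA from roots was sequenced as single-end 50 bp reads. The authors aligned them with GSNAP to the Glyma1.0 gene models, kept reads with a single location and deposited raw counts per gene model. The authors also deposited a normalized signal, each count divided by the DESeq 1.7.10 size factor of its library. The use of strand in counting is not given in the sources used here, so genes that overlap others are uncertain. The genes were chosen on the normalized signal. The members and lists were chosen with earlier results of these data known.

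Raw counts were tested in R 4.3.3 with edgeR 4.0.16 (filterByExpr, TMM, robust quasi-likelihood fit of 7 groups), with Benjamini-Hochberg adjustment over 36691 genes. All 150 members passed the filter. The fit had a biological coefficient of variation of 0.306. Calls required an adjusted p under 0.05 and a 2-fold change, and the SE is the log2 fold change divided by the root of F. On simulated counts for 6 hr of dehydration against the control, 35839 genes, edgeR called 4 of 50 genes at a fold of 0.5, 41 of 50 at 0.25, 50 of 50 at 0.125 and 9 of 35639 unchanged genes. The simulation gave every gene the same coefficient of variation, 0.306, and changed only genes above a minimum expected count. A fold of 0.5 is itself the limit for a call.

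Genes named in the text are the 12 with the highest score, the 3 highest in each class with at least 3 members, 3 on each side of the limit, and genes the text marks as singled out. Transcription factor classes replaced the planned lists of product names after the files were seen, because the reference names could not be matched to these gene models. Promoters, proteins, copies and cell type markers were therefore not analysed here. The lane of each library came from the paper. Alternatives used DESeq2 1.42.0, limma 3.58.1, other filters, lane or replicate number as a term, and single libraries left out.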

Additional observations from a re-analysis of the deposited data

How the results depend on the processing

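The counts of genes called depended on the test more than the levels did. Called down at 6 hr of dehydration, 59 genes, were 39 with no filter on low counts, 22 with lane as a term, 32 with only the 6 libraries compared, 108 with DESeq2's Wald test, and 12 to 76 with single libraries left out. Called down at 12 hr, 58 genes, were 32 with lane, 104 with DESeq2, and 17 to 79 with single libraries left out. The 4 calls at 1 hr of dehydration were 2 with no filter, 1 with lane, 2 with only the 6 libraries, 8 with DESeq2 and 1 to 7 with single libraries left out. The 1 call at 1 hr of salt was 0 with lane, 0 with only the 6 libraries, 3 with DESeq2 and 0 to 2 with single libraries left out. Between 12 and 6 hr of dehydration the count was 0 in every alternative run. The cause of these shifts was not tested. Fits that leave a library out also have fewer libraries, and their counts went both down and up. Of 63 pairs of libraries with the same replicate number, 17 had deviations correlated over 0.1 (range -0.48 to 0.45), and in none of the comparisons made here were all 3 pairs over it, so the numbers were not taken to pair these libraries; all 3 pairs were over it for 12 against 6 hr of salt (0.15, 0.45 and 0.43), which were not compared. With the replicate number as a block the counts for dehydration were 50 (6 hr), 54 (12 hr) and 2 (1 hr), and for 1 hr of salt 0. DESeq2's size factors, a filter on a mean of 1 CPM and limma kept every count within 1.5 times.

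The median difference at 12 hr was -1.82 with a pseudocount of 1. The rule kept 115 of the 150 genes with a pseudocount of 1, 132 with the mean of log2 values, 147 with TMM scaling and 109 to 143 with single libraries left out, the fewest without replicate 3 of 1 hr of dehydration. After the data were seen, single libraries were also left out of the medians and of the 55 genes without overlap (55 to 71), and the within-lane and left-out replicate values were added. The comparison of close copies at another identity was not run. With 3 libraries a group and a call that requires an estimated fold of at least 2, a 2-fold difference can go uncalled. Of the 50 genes set to a fold of 0.5 in the counts described under data processing, 4 were called. How often a 2-fold difference was missed among the 150 genes was not tested.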
